A study of Mus musculus with 24 samples.

Results

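The genes of the cytosolic ribosomal proteins were followed in the livers of control and tumour-bearing mice. A gene was a member if its Ensembl identifier maps, in the GENCODE M21 annotation, to a protein-coding symbol that begins with Rpl or Rps and then a number, or with Rplp. The S6 kinases (Rps6k) and pseudogene symbols were left out. Of 22392 genes in the table, 84 were members. They comprised 46 proteins of the large (60S) subunit, 30 proteins of the small (40S) subunit, 7 paralogs of such proteins and Rps19bp1. Rps19bp1 shares the prefix only: it encodes a protein that binds Rps19 and is not part of the ribosome. Ribosomal proteins with other symbols, such as Rpsa, Fau and Rack1, lie outside the rule.

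All animals were CD2F1 mice, and RNA was sequenced from 8 livers in each of 3 groups, taken here as 1 mouse each. Control mice (CT) were sham-injected. C26 mice had received a transplant of C26 colon carcinoma cells, whose tumours make mice lose weight and muscle, and no treatment. In C26-CHO mice the transplant was combined with cholestyramine, an oral resin that takes up bile acids, as 2% (w/w) of their food over days 1 to 10 from the injection of the cells. Tumour-free mice on cholestyramine were not analysed here, and the sources used here give neither age nor sex.

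A ribosome is built from ribosomal RNA and one copy of nearly every ribosomal protein, so cells need these proteins in near-equal numbers. Their mRNAs are short and abundant, and most begin with a terminal oligopyrimidine (TOP) tract, a C at the cap followed by a run of C and T. Through this tract the mTORC1 kinase, by way of Larp1, controls how fully these mRNAs are translated, and that control acts on translation more than on the amount of mRNA measured here. In liver the ribosomes make most plasma proteins, including the acute phase proteins that rise in inflammation.

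The values are read counts divided by the authors' size factors, called deposited values below. Reads per library numbered from 20749425 to 24071853 in CT, from 19905578 to 29134516 in C26 and from 20750904 to 30503996 in C26-CHO. Acute phase genes took 2.90% ± 0.108 of reads in CT (SD, n = 8), 33.8% ± 0.913 in C26 and 30.7% ± 3.66 in C26-CHO. C26-CHO mouse 1 stood apart, with the lowest share of its group at 22.1%. C26 mouse 7 had the lowest value of its group in 49 of the 81 tested members, and without it 53 members were called higher and 5 lower in C26 against CT, with a median log2 fold change of 0.20 (limma; the counts with it are given below). The direction of a gene depends on the scaling: on the deposited scale the median log2 fold change of all tested genes in C26 against CT was 0.01, and with every library scaled to the same total count it was -0.34. Folds below are on the deposited scale and thus relative to the typical gene, unless another scale is named. In whole liver, fewer cells of a type and less RNA per cell cannot be told apart.

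Of the 84 members, 81 had a mean deposited value of at least 10 and were tested. Rpl39l (mean 0.42), a paralog of Rpl39, Rpl3l (6.43), the striated-muscle form of Rpl3, and Rpl24 (6.98), a canonical 60S protein, did not reach it. Rpl24 ranged from 2.65 to 8.32 in CT and from 5.46 to 17.9 in C26, and why a canonical subunit gene was counted so low was not tested. Per kilobase of principal transcript, the median level of the canonical genes in CT was 3744 deposited units for the 60S genes (n = 46) and 4529 for the 40S genes (n = 30). Rplp1 had the highest level per kilobase in CT at 9844. Rpl10 at 9074 and Rps2 at 8745 came next, and these 3 levels lie within the spread between mice. Lengths came from 1 transcript per gene, so levels of genes with alternative ends, such as Rps15a, are rough.

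In tumour-bearing livers most ribosomal protein mRNAs rose by a small amount relative to the typical gene. In C26 against CT, 49 of 81 members were called higher and 6 lower (limma on log2 values, Benjamini-Hochberg adjusted p under 0.05 over all 14040 genes tested), where 33.3% of all tested genes were called higher and 32.9% lower. As shares of the members these counts are 60.5% and 7.41%. The median log2 fold change was 0.18 over the members, a ratio of 1.13, against 0.01 over all tested genes. On the total-count scale the members' count turned to 5 higher and 53 lower, with a median of -0.17 where all genes had -0.34. With quantile normalization it was 68 higher and 4 lower, with a median of 0.36, which lay 0.37 above that of all genes. The changes were small: no member reached a 2-fold change, as 17.4% of all tested genes did. In 15 members every C26 mouse lay above every CT mouse (16.9% of all tested genes), and in 2 every C26 mouse lay below (18%).

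**Figure D1:**
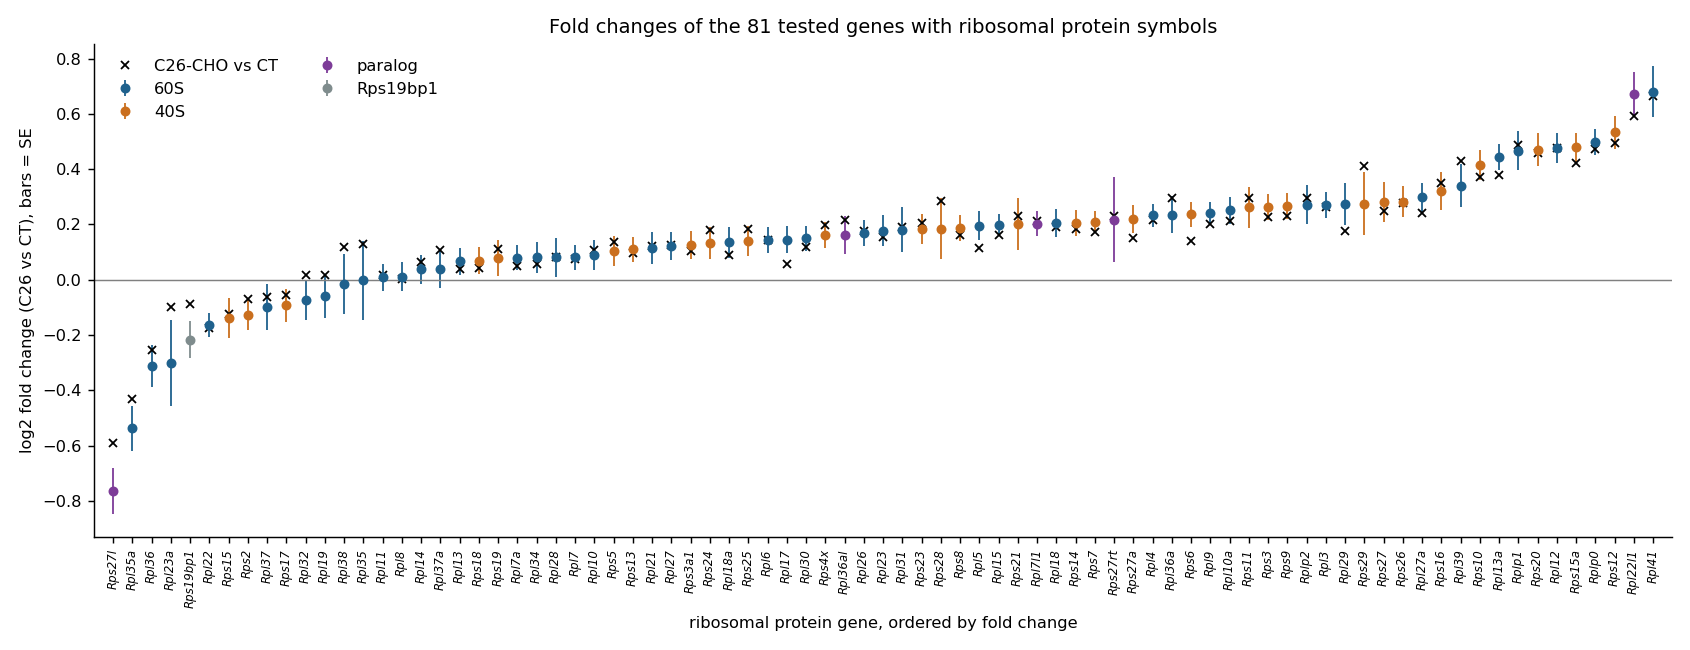
Log2 fold change of each of the 81 tested genes in C26 against CT, ordered by size (points with standard errors, coloured by subunit; crosses show C26-CHO against CT). Folds run from -0.77 for Rps27l to 0.68 for Rpl41 on the deposited scale, and most points lie just above 0; on a total-count scale 53 of the 81 were lower.

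The level in each liver shows the same size of shift. The median over the 81 members of the log2 difference from the CT mean ran from -0.15 to 0.12 in CT, from -0.0037 to 0.27 in C26 and from 0.10 to 0.29 in C26-CHO, so the groups overlapped. The members took 1.24% ± 0.0667 of all reads in CT (SD, n = 8), 1.10% ± 0.0641 in C26 and 1.13% ± 0.0804 in C26-CHO. With the reads of the acute phase list left out of the total, the share was 1.28% ± 0.0684 in CT, 1.67% ± 0.107 in C26 and 1.63% ± 0.0585 in C26-CHO. On that total every tumour-bearing mouse (lowest 1.52%) lay above every CT mouse (highest 1.38%). The list held 2.90% of reads in CT and 33.8% in C26, so leaving it out raises the share more in tumour-bearing mice by construction. This separation therefore depends on which reads were left out. The balance of the subunits differed by less than the spread between mice. Reads of canonical 60S genes per read of 40S genes were 1.47 ± 0.0179 in CT, 1.47 ± 0.0114 in C26 and 1.46 ± 0.0149 in C26-CHO.

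**Figure D2:**
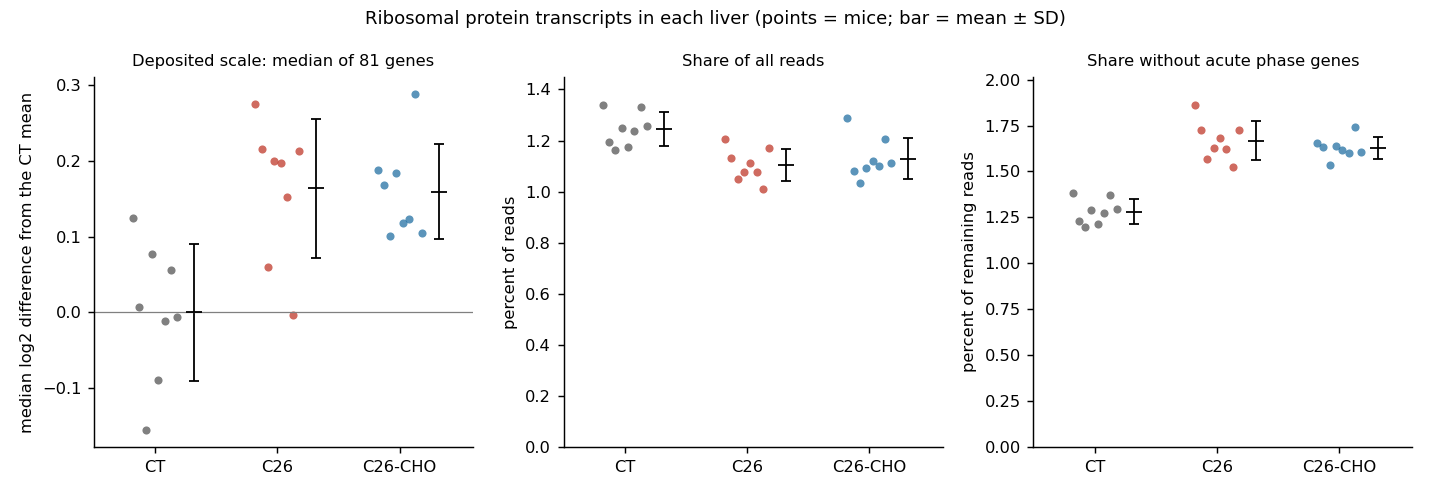
Ribosomal protein mRNAs in each liver (points are mice in the order of their numbers, bars mean ± SD, n = 8): median log2 difference from the CT mean on the deposited scale, percent of all reads, and percent of reads without acute phase genes. The C26 group is above CT in the left and right panels (mean share 1.67% against 1.28% at right) and below it in the middle panel (1.10% against 1.24%). At right the reads left out are a larger part of the total in tumour-bearing mice.

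Both subunits took part. Of the 45 tested 60S genes 24 were called higher and 3 lower (median log2 fold change 0.14), and of the 30 tested 40S genes 22 were called higher and 1 lower (median 0.20). The median SD of a member's log2 value was 0.11 in CT, 0.11 in C26 and 0.10 in C26-CHO, against 0.20, 0.18 and 0.21 for all tested genes. Some members varied more between C26 mice, with SDs of 0.49 for Rpl23a, 0.46 for Rpl35, 0.36 for Rps29, 0.33 for Rpl38 and 0.30 for Rps28. C26 mouse 7 was the lowest of its group in each of these 5: Rpl35 was at 360 in it and from 619 to 981 in the other 7 mice, and Rps29 at 1511 and from 2428 to 3491. Across the 75 tested canonical genes the C26 fold change had a Spearman's rho of 0.22 with transcript length, 0.08 with the level in CT and -0.12 with the level per kilobase in CT; these are descriptions across genes that share the same 16 libraries.

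All 4 genes of the P stalk were called higher in C26 against CT, as 60.5% of all members and 33.3% of all tested genes were. This stalk on the 60S subunit recruits and activates the elongation factors; Rplp0 is its base, Rplp1 and Rplp2 its flexible arms, and Rpl12 sits beside them. Rplp0 (ENSMUSG00000067274, chr5:115559467-115563727, GRCm38) had deposited values from 3612 to 3961 in CT (median 3751), from 4924 to 5716 in C26 (median 5334) and from 4722 to 5843 in C26-CHO (median 5273). All 16 tumour-bearing mice lay above all CT mice. The log2 fold change in C26 was 0.50 ± 0.0461 (SE; limma adjusted p = 5.24e-10), a ratio of 1.41. Rplp1 ranged from 4272 to 5740 in CT (median 4759), from 5536 to 7757 in C26 (median 6947) and from 6066 to 7792 in C26-CHO (median 6850). The C26 and CT ranges overlapped and the C26-CHO and CT ranges did not. Its log2 fold change in C26 was 0.47 ± 0.0708 (adjusted p = 2.35e-06, limma). Rpl12 ranged from 2091 to 2714 in CT (median 2394), from 3131 to 3563 in C26 (median 3341) and from 3111 to 3850 in C26-CHO (median 3274), with no overlap between CT and either tumour group. It rose by 0.48 ± 0.0539 (adjusted p = 1.99e-08, limma). Rplp2 ranged from 1499 to 1887 in CT (median 1777), from 1688 to 2466 in C26 (median 2122) and from 1910 to 2337 in C26-CHO (median 2108); it rose by 0.27 ± 0.0711 in C26 (adjusted p = 0.00161, limma), with overlapping ranges. On the total-count scale Rplp0 was still called higher (0.15), Rpl12 and Rplp1 were at 0.13 and 0.12 without passing the test, and Rplp2 was at -0.08.

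The largest rise was in Rpl41 (ENSMUSG00000093674, chr10:128548114-128549305), which encodes the smallest ribosomal protein, a short basic helix at the interface of the subunits. Its deposited values ran from 3163 to 4065 in CT (median 3627), from 3863 to 7207 in C26 (median 6005) and from 5028 to 6383 in C26-CHO (median 5722). C26 mouse 7, at 3863, fell inside the CT range and the other 7 C26 mice lay above it. The log2 fold change in C26 was 0.68 ± 0.0914 (adjusted p = 3.54e-07, limma), a ratio of 1.60, and 0.33 on the total-count scale.

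The beak of the 40S subunit, where Rps10, Rps12 and Rps27a lie, was the other site whose members were all called higher in C26 (3 of 3, median 0.42). Over all members the share called higher was 60.5%, and over all tested genes 33.3%. Rps12 ran from 2075 to 2533 in CT (median 2236), from 3003 to 3938 in C26 (median 3297) and from 2974 to 3662 in C26-CHO (median 3177), and every tumour-bearing mouse lay above every CT mouse. Its log2 fold change in C26 was 0.53 ± 0.0604 (adjusted p = 2.04e-08, limma) and 0.19 on the total-count scale. Rps10 rose from 2216 ± 148 to 2958 ± 249 (mean ± SD, n = 8; log2 fold change 0.42, adjusted p = 1.71e-07 in limma). Rps27a, made as a fusion of ubiquitin and a ribosomal protein, rose from 3181 ± 259 to 3698 ± 221 (log2 fold change 0.22, adjusted p = 5.62e-04 in limma) and turned to -0.13 on the total-count scale.

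At the sites where mRNA is held and read the members were divided. At the mRNA entry, where Rps2, Rps3 and Rps9 form the helicase of the 40S subunit, Rps3 rose from 5249 ± 354 to 6294 ± 326 and Rps9 from 4372 ± 258 to 5260 ± 307 (mean ± SD, n = 8; log2 fold changes 0.26 and 0.27, limma adjusted p = 2.55e-05 and 1.38e-05). Rps2 was called lower, from 8728 ± 628 to 7989 ± 544 (-0.13, limma adjusted p = 0.0428). In limma the call missed the threshold with TMM scaling (adjusted p = 0.0547), without the filter on low values (0.0705) and in a fit of the 2 groups (0.0514). It also missed in edgeR's quasi-likelihood test (adjusted p = 0.0520). Under quantile normalization Rps2 was called higher, at 0.26 (limma adjusted p = 5.95e-06). In the decoding centre Rps23, which touches the codon in the A site, rose by 0.18 ± 0.0547 (adjusted p = 0.00465, limma), while Rps15, whose tail reaches the same site, had -0.14 ± 0.0734 and did not pass (adjusted p = 0.0994). On the platform, where mRNA leaves, Rps26 rose by 0.28 (adjusted p = 7.42e-05, limma), and 3 of 5 members were called higher in all. Rps6, the 40S protein phosphorylated by the S6 kinases, rose from 5516 ± 364 to 6492 ± 315 (0.24, adjusted p = 5.03e-05 in limma). On the total-count scale Rps3, Rps9, Rps23 and Rps6 were at -0.08, -0.08, -0.16 and -0.11.

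In the inner parts of the 60S subunit some members rose and others did not pass the test. Of the proteins that reach toward the peptidyl transferase centre, Rpl3 rose from 5154 ± 344 to 6214 ± 217 (0.27, adjusted p = 1.38e-05 in limma), with all C26 mice above all CT mice. Rpl10 at 7250 ± 548 and 7706 ± 464 (0.09, adjusted p = 0.153) and Rpl8 at 4941 ± 332 and 4974 ± 266 (0.01, adjusted p = 0.867) did not pass in limma. The 5S particle, which joins 5S RNA to Rpl5 and Rpl11 and can hold Mdm2 in its free form, was split: Rpl5 rose by 0.20 ± 0.0514 (adjusted p = 0.00166, limma), while Rpl11 was at 0.01 ± 0.0486 (adjusted p = 0.877). Around the exit tunnel of the nascent chain 4 of 8 members were called higher and none lower; Rpl39 rose by 0.34 (adjusted p = 5.06e-04) and Rpl4 by 0.23 (adjusted p = 2.26e-05, both limma). Rpl23a, also at the tunnel, varied most between C26 mice, from 150 to 441 (median 330) against 304 to 476 in CT (median 391), and did not pass (-0.30 ± 0.155, adjusted p = 0.0887 in limma).

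Few members fell. Rpl35a (ENSMUSG00000060636, chr16:33056453-33060189), a 60S protein mutated in some patients with Diamond-Blackfan anaemia, ran from 2310 to 2924 in CT (median 2685), from 1294 to 2147 in C26 (median 1865) and from 1716 to 2319 in C26-CHO (median 1916). Every C26 mouse lay below every CT mouse, and 1 C26-CHO mouse reached the CT range. Its log2 fold change in C26 was -0.54 ± 0.0826 (adjusted p = 2.83e-06, limma), a ratio of 0.69. Rpl36, another 60S protein, ran from 1456 to 2000 in CT (median 1755), from 1103 to 1612 in C26 (median 1403) and from 1240 to 1699 in C26-CHO (median 1459); it fell by 0.31 ± 0.0758 on the log2 scale in C26 (adjusted p = 7.69e-04, limma), with overlapping ranges. Rpl22 fell by 0.16 ± 0.0423 (adjusted p = 0.00145, limma), from 2250 ± 104 to 2010 ± 112, and was at 0.01 under quantile normalization. Rps19bp1, which is no ribosomal protein, fell from 211 ± 17.6 to 181 ± 13.5 (-0.22, adjusted p = 0.00691 in limma).

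**Figure D3:**
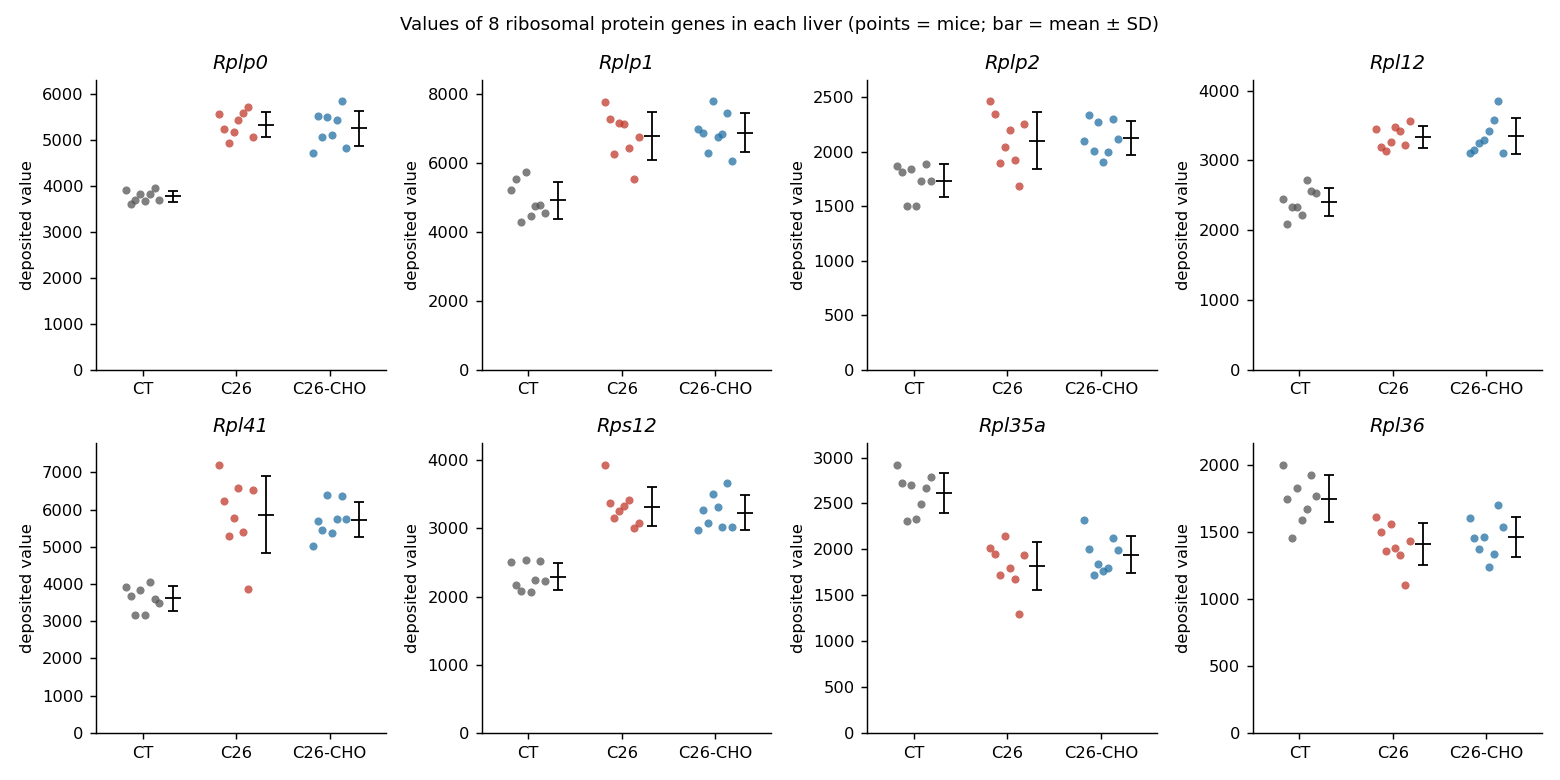
Deposited values of 8 genes in each liver (points are mice in the order of their numbers, bars mean ± SD, n = 8; each vertical axis starts at 0). The P stalk genes, Rpl41 and Rps12 are higher in both tumour groups (Rplp0 from a median of 3751 in CT to 5334 in C26) and Rpl35a and Rpl36 lower; on a total-count scale Rplp2 turned to -0.08.

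Of the 5 tested paralogs, Rpl22l1, Rpl36al and Rpl7l1 were called higher in C26 against CT, Rps27l was called lower, and Rps27rt did not pass the test (limma). Rpl22l1 can take the place of Rpl22 in the 60S subunit. Its deposited values ran from 510 to 781 in CT (median 654), from 970 to 1214 in C26 (median 1045) and from 783 to 1174 in C26-CHO (median 981). Every tumour-bearing mouse lay above every CT mouse, by a narrow margin in C26-CHO (783 against 781). As a percent of Rpl22 in the same library, a measure that no scaling between libraries affects, Rpl22l1 stood at 29.6% ± 3.92 in CT (SD, n = 8), 52.8% ± 6.18 in C26 and 50.5% ± 7.61 in C26-CHO. By this percent the lowest C26-CHO mouse (35.7%) fell just below the highest CT mouse (36.0%), while all C26 mice (lowest 45.1%) lay above CT. The log2 ratio was 0.84 higher in C26 than in CT (two-sided exact permutation test, adjusted p = 4.66e-04 over the 9 tests of 3 pairs and 3 comparisons). It differed by -0.07 between C26-CHO and C26 (exact permutation adjusted p = 0.573).

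Rps27l, a paralog of Rps27 known as a p53 target, showed the largest fall of the 81 tested members. It ran from 2207 to 2842 in CT (median 2540), from 1106 to 1673 in C26 (median 1561) and from 1502 to 2183 in C26-CHO (median 1627), and all tumour-bearing mice lay below all CT mice. Its log2 fold change in C26 was -0.77 ± 0.0830 (adjusted p = 9.85e-09, limma), a ratio of 0.59. Rps27 itself rose by 0.28 ± 0.0716 (adjusted p = 0.00126, limma). In counts, not corrected for length, Rps27l stood at 128% ± 11.5 of Rps27 in CT (SD, n = 8), 61.8% ± 3.35 in C26 and 71.6% ± 8.19 in C26-CHO. The log2 ratio differed by -1.05 between C26 and CT, at the smallest p that 8 against 8 mice allow (exact permutation p = 1.55e-04, adjusted 4.66e-04). Of the 3 ratios it was the one that passed the test between the tumour groups, with C26-CHO 0.21 above C26 (exact permutation p = 0.00155, adjusted 0.0028). The difference was 0.16 without C26-CHO mouse 1, the mouse with the fewest acute phase reads and the highest ratio, 88.9% (exact permutation adjusted p = 0.00531).

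Rpl36al and Rpl36a, which encode nearly identical proteins, did not pass the test of their ratio. Rpl36al stood at 208% ± 17.9 of Rpl36a in CT (SD, n = 8), 197% ± 10.3 in C26 and 197% ± 12.4 in C26-CHO, and the log2 ratio differed by -0.07 between C26 and CT (exact permutation adjusted p = 0.230). Both genes were called higher in C26 (0.16 and 0.24, limma adjusted p = 0.0394 and 0.00324); the call for Rpl36al missed the threshold in a fit of the 2 groups alone (adjusted p = 0.0520). Rpl7l1, a paralog of Rpl7 that works in ribosome assembly, rose by 0.20 ± 0.0441 (adjusted p = 2.49e-04, limma). Rps27rt, a retrotransposed copy of Rps27, stood at 50.6 ± 13.05 in CT and 58.2 ± 13.09 in C26 (adjusted p = 0.217, limma).

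**Figure D4:**
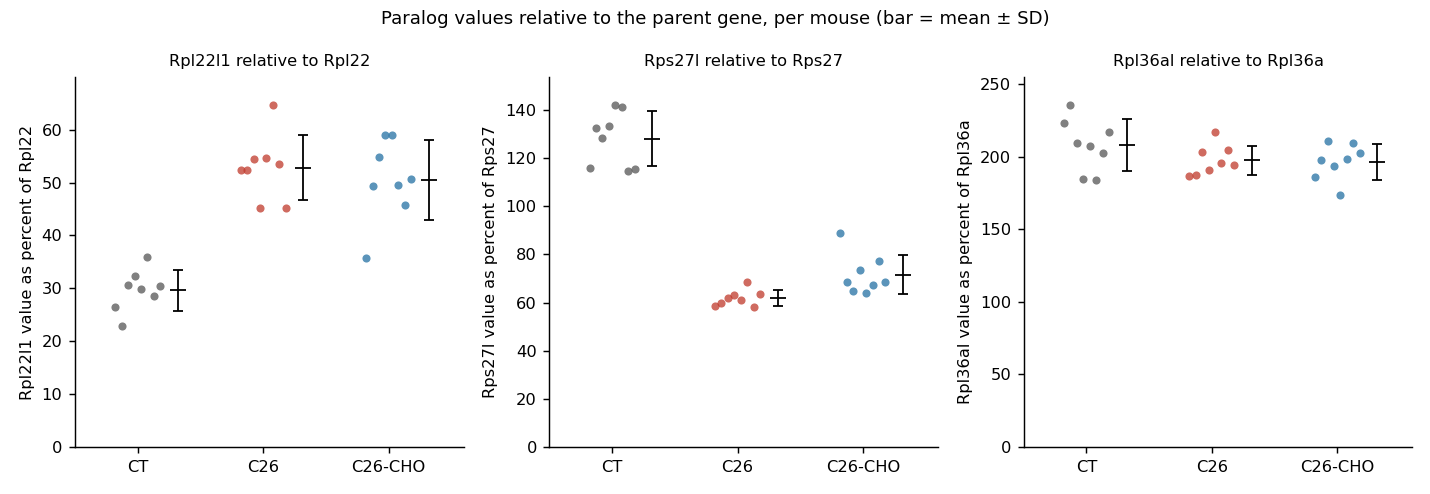
Value of each paralog as a percent of its parent gene in the same library (points are mice in the order of their numbers, bars mean ± SD, n = 8). Rpl22l1 moves from 29.6% of Rpl22 in CT to 52.8% in C26, Rps27l from 128% to 61.8% of Rps27, and Rpl36al lies at 208% and 197% of Rpl36a.

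The start sites of these genes are shown because the TOP tract marks mRNAs under mTORC1 control, and to set the paralogs beside their parents. In each line 15 bases before and 15 bases from the RefSeq start of GRCm38.p6 are given, 5′ to 3′ on the gene's strand, and capitals mark a C followed by at least 4 pyrimidines that begins within 5 bases of the start. The genes were picked because their values are described here, and the share with a tract among those printed is not that of the family.
Rps6, chr4:86857353-86857382, minus strand: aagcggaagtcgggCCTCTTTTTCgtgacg
Rplp2, chr7:141447636-141447665, plus strand: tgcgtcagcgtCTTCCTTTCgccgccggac
Rpl12, chr2:32961697-32961726, plus strand: ggcggagcaggatccgtCTTTTCggctttc
Rps15a, chr7:118116133-118116162, minus strand: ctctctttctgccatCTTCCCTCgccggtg
Rps10, chr17:27635230-27635259, minus strand: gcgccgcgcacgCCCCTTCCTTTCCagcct
Rps27, chr3:90213634-90213663, minus strand: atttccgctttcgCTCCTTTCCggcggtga
Rps27l, chr9:66946071-66946100, plus strand: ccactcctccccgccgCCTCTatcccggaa
Rpl22l1, chr3:28805493-28805522, plus strand: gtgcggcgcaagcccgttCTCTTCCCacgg
Rplp0, chr5:115559452-115559481, plus strand: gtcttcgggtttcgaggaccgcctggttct
Rpl41, chr10:128549154-128549183, minus strand: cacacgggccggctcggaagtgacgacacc
Rps12, chr10:23787195-23787224, minus strand: taccgtcatgcggccaccgccggccttttc
Rpl22, chr4:152325711-152325740, plus strand: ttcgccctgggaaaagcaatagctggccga
Rpl35a, chr16:33056438-33056467, plus strand: gcggggcgtgcgtcccacaaggccgcgcgg

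Promoters of 63 of the 83 ribosomal protein symbols were matched in the RefSeq table. The annotated start was itself such a C in 13 of them (20.6%), against 2.49% of 27025 promoters of all genes, and a run began within 5 bases in 29 (46%, against 18.5%). An annotated start can lie some bases from the start in use. Lines without capitals, as for Rplp0, Rpl41, Rps12, Rpl22 and Rpl35a, say only that no such run begins within 5 bases of the annotated start. The Rps12 window does end in such a run (ccttttc), further from the start. Within the 300 bases from 250 before to 50 after the start, on either strand, the GABP motif CCGGAAG was found in 38.1% of the members' promoters (9.12% of all), the YY1 motif AAGATGGC in 7.94% (2.88%), the SP1 motif GGGCGG in 58.7% (35.9%) and TATAAA in 9.52% (14.2%). A match is a description of the letters and not of a site in use. The 13 tested members with the run at the start had a median log2 fold change of 0.20 in C26 (6 called higher, none lower) and the 47 others 0.18 (31 higher, 4 lower).

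Between untreated and cholestyramine-fed tumour-bearing mice no ribosomal protein gene passed the test. In C26-CHO against C26 no member was called in either direction (limma), where 0.556% of all tested genes were called higher and 0.15% lower. At an unadjusted p under 0.05 there were 2 of 81 members, Rps6 and Rps27l, beside 13.05% of all genes; edgeR's quasi-likelihood test and DESeq2 also called none, with 1 and 2 members under that unadjusted p. Under quantile normalization none was called either, 14 members had an unadjusted p under 0.05, and the median log2 fold change was -0.06 where all genes had -0.01. On the deposited scale the median log2 fold change was 0.00, and the largest was 0.20 for Rpl23a, with a median standard error of 0.05. Rps6 was at -0.09 ± 0.0448 (limma adjusted p = 0.365) and Rps27l at 0.18 ± 0.0830 (limma adjusted p = 0.362).

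In C26-CHO against CT 48 of 81 members were called higher and 4 lower (31.3% and 30.9% of all tested genes), with a median log2 fold change of 0.16. This comparison shares its control mice with that of C26 against CT. On the total-count scale it gave 7 higher and 46 lower, with a median of -0.15 beside -0.30 over all genes. In 19 members every C26-CHO mouse lay above every CT mouse (12.1% of all tested genes), and in 1, Rps27l, below (13.1%). Rpl41 (0.67), Rpl22l1 (0.59), Rps12 (0.50), Rplp1 (0.49), Rpl12 (0.48) and Rplp0 (0.47) led the rise, and Rps27l (-0.59), Rpl35a (-0.43), Rpl36 (-0.26) and Rpl22 (-0.17) were the members called lower. Rps2 and Rps19bp1, called lower in C26, were at -0.07 and -0.09 and did not pass (limma adjusted p = 0.268 and 0.273). Rpl5 was at 0.11 and missed the threshold (limma adjusted p = 0.0563). It passed with TMM scaling (adjusted p = 0.0403), with a replicate block (0.0199), in DESeq2 (0.0388) and with quantile normalization (1.44e-04), and was called lower, at -0.20, on the total-count scale (adjusted p = 0.00772).

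Other genes of the translation machinery were called in both directions in C26 against CT, where 33.3% of all tested genes were called higher and 32.9% lower. Of the ribosomal proteins outside the rule, Rpsa rose by 0.33 (adjusted p = 2.91e-06) and Rack1 by 0.23 (adjusted p = 7.77e-05), and Fau fell by 0.20 (adjusted p = 0.0156, all limma). Of 8 elongation factor genes 3 were called higher and 2 lower: Eef1b2, Eef1g and Eef2, the translocase, rose by 0.43, 0.38 and 0.31, and Eef2k, the kinase that inhibits Eef2, fell by 0.66. Of 34 initiation factor genes 7 were called higher, among them the cap-binding Eif4e (0.42), and 10 lower, among them Eif4b (-0.62); both counts lie below these shares. Of 54 ribosome biogenesis genes 20 were called higher, led by Heatr1 (1.28) and the GTPase Gnl2 (1.13), and 9 lower, among them Dkc1 (-0.70) and Sbds (-0.60); the median was 0.05. RNA polymerase I, which makes the large ribosomal RNAs, had 8 of 14 genes called higher and 2 lower, with a median of 0.21 and Polr1e at 0.69. Of 33 genes of mTORC1 and TOP control 5 were called higher, among them the translation repressor Eif4ebp1 (0.89), and 15 lower, among them Deptor (-1.30), an inhibitor of mTOR, and Tsc2 (-0.58). The log2 fold changes in this list ran from -1.30 to 2.46. Ddit4, of the same list, had deposited values from 51.8 to 819 in CT (mean 236) and from 568 to 1328 in C26 (mean 886). The counts do not separate inhibitors of mTORC1 from its other genes, and the activity of the pathway was not tested.

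Proteins of the mitochondrial ribosome, which translates only the mRNAs of mitochondrial DNA, were called lower more often than higher. Of 76 genes 13 were called higher and 43 lower in C26, with a median log2 fold change of -0.27; Mrps35 fell by 0.95 and Mrpl17 rose by 0.80. The difference between the 2 families was not tested. In C26-CHO against C26 none of the 76 was called.

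**Figure D5:**
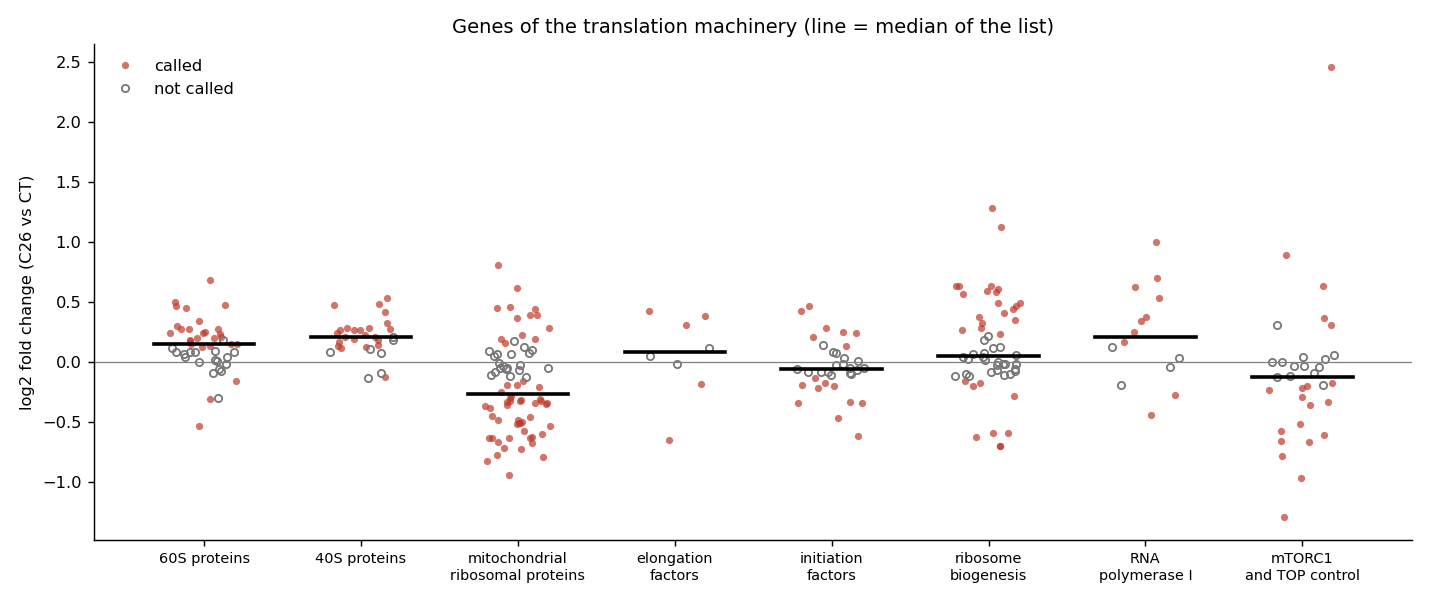
Log2 fold change in C26 against CT for the genes of each list (points are genes, filled where called at an adjusted p under 0.05 in limma, the line is the list's median). The medians are 0.14 for 60S and 0.20 for 40S proteins, -0.27 for mitochondrial ribosomal proteins and 0.05 for ribosome biogenesis; on a total-count scale the median of the 81 members was -0.17.

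Values of single members carry a limit of counting. Ribosomal protein genes have many near-identical processed pseudogenes, and the table holds 186 rows with such symbols, 10 of them with a mean above 1000. Together these rows held 0.185% of reads in CT, 0.143% in C26 and 0.149% in C26-CHO. Rps2-ps10 stood at 66.4% of Rps2 and moved with it (-0.14 and -0.13), as did Rpl35a-ps3 (-0.45) with Rpl35a (-0.54) and Rpl3-ps1 (0.27) with Rpl3 (0.27). Other copies had values unlike those of their parents. Rpl23a-ps3, at 110.5% of Rpl23a, was at 0.09 where Rpl23a was at -0.30, Rpl36a-ps3, at 42.7% of Rpl36a, was at -0.01 where Rpl36a was at 0.24, and Rpl10-ps3 was at -0.15 where Rpl10 was at 0.09. Over the 111 tested rows the median was -0.11, with 13 called higher and 14 lower, where 33.3% and 32.9% of all tested genes were. The differences between copy and parent were not tested. How the authors' counting divided reads between parent and copy is not given in the sources used here, so the levels of these members are uncertain.

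Markers of several cell types, hepatocytes included, differed between CT and C26, while the summed ranges of stellate, B cell and erythroid markers overlapped. The summed deposited value of 9 hepatocyte markers ranged from 1692599 to 1957329 in CT and from 804898 to 1047637 in C26, with 5 called lower and 2 higher. Of 11 Kupffer cell and macrophage markers 10 were called higher (summed range 5825 to 8278 in CT and 10355 to 13399 in C26), and all 3 tested of 10 neutrophil markers (12.4 to 30.9 and 142 to 639). Cholangiocyte markers (312 to 473 and 5471 to 11394) had 2 of 5 called higher, sinusoidal endothelial markers (4555 to 5846 and 6051 to 7862) 5 of 7 higher and 1 lower, and stellate cell markers (3980 to 5667 and 4773 to 6839) 2 of 8 higher and 1 lower. B cell markers (223 to 580 and 109 to 290) had 4 of 5 called lower, T cell markers (59.5 to 113 and 17.2 to 38.2) 1 of 1 lower, and erythroid markers (11348 to 23433 and 10727 to 28843) 3 of 5 higher and 1 lower. These counts stand beside 33.3% of all tested genes called higher and 32.9% called lower in C26 against CT. No marker was at 0 in every mouse. In C26-CHO against C26 none of these markers was called. The part of these shifts in the ribosomal protein values was not tested.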

How the data were processed

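The authors deposited 1 table of read counts per gene divided by DESeq2 size factors, a normalized signal. Per the submitters' processing notes, the tools were bcl2fastq 2.17, FastQC, Trimmomatic 0.38, STAR 2.6.1d and DESeq2 1.22.2 on GRCm38; for the counting tool, the annotation and the strand setting, the sources used here name nothing. Each library's values were whole multiples of 1 step, so whole reads were recovered (100% of values within 0.001 read), and the authors' size factors with them. Of the identifiers, 22009 took a symbol from GENCODE M21 and 383 did not.

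Members were taken from the deposited table by symbol. The members and lists were chosen with earlier results of these data known. log2(value + 1) of the 14040 genes with a mean of at least 10 was fitted in limma 3.58.1 (trend, R 4.3.3) over all 24 libraries, with Benjamini-Hochberg adjustment over all genes and a threshold of 0.05; folds of low genes are understated on this scale. The labels do not describe separate cultures or litters, so p-values measure the spread between these livers. Paralog ratios were compared by exact permutation over mice. The alternatives were other pseudocounts, filters and scalings, a replicate block, each library left out, and count tests on the recovered reads (edgeR 4.0.16 and DESeq2 1.42.0). On simulated counts for C26 against CT (14040 genes, 200 changed), 76% of genes raised by 0.5 on the log2 scale, 64% of those lowered by 0.5, 98% of those changed by 1 in either direction and 0.07% of unchanged genes were called. The simulation gave every gene the same dispersion and changed few genes, whereas 66.3% of tested genes were called in the data. These rates thus check the fit and are not error rates of this comparison. A fold as small as the members' median of 0.18 was not simulated.

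Named for each comparison were the 6 called members with the largest and the 6 with the smallest fold, all called members of the rarer direction if at most 10, all paralogs, Rps6, Rps27a, Rps19bp1 and the members of the P stalk, 5S particle, decoding centre, peptidyl transferase and mRNA entry lists, and up to 3 genes of each other list by p. Genes named beyond this rule, such as Rpl23a, Rpl24, Eef2, Dkc1, Mrpl17, Naca and Myc, were chosen after their values were seen. Levels per kilobase used 1 transcript per gene: the best APPRIS rank, then the best support level, then the shortest.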

Additional observations from a re-analysis of the deposited data

Results flagged for a closer look

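In 111 sets of 8 mice, the highest or lowest mouse was set against the rest: its gap to the next mouse, as a part of the group's range, was compared with Dixon's 95% critical value for 8 samples. It was larger in 6 sets, about as many as the 1 in 20 that chance gives. In CT, mouse 6 had the highest Rps3 value, 6041. In C26, mouse 1 had the highest Rps12 value, 3938.5. In C26-CHO, mouse 7 had the highest Rpl3 value (7129.3), the highest Rpl36al value (3825.6) and the highest median log2 difference of the members from the CT mean (0.28774). Also in C26-CHO, mouse 8 had the lowest Rps15a value, 1707.8.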

How the results depend on the processing

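Other pseudocounts, filters, TMM scaling, a fit of 2 groups, edgeR and DESeq2 kept the counts of members called and their medians within the limits set. Scaling decides the direction for most members. With total-count scaling, C26 against CT had 5 higher and 53 lower with a median of -0.1685, and C26-CHO against CT 7 and 46 with -0.1490; with quantile normalization the medians were 0.3648 and 0.3180. With total-count scaling the log2 fold changes in C26 and then C26-CHO against CT turned to -0.2571 and -0.2003 for Rpl10, -0.3372 and -0.2937 for Rpl11, -0.0747 and -0.0464 for Rpl3, -0.1106 and -0.0126 for Rpl36a, -0.1832 and -0.0926 for Rpl36al, -0.1507 and -0.1953 for Rpl5, -0.1430 and -0.0954 for Rpl7l1, -0.3357 and -0.3079 for Rpl8, -0.0750 and -0.0122 for Rplp2, -0.1624 and -0.1032 for Rps23, -0.0657 and -0.0599 for Rps27, -0.1271 and -0.1587 for Rps27a, -0.1224 and -0.0717 for Rps27rt, -0.0835 and -0.0835 for Rps3, -0.1100 and -0.1675 for Rps6, and -0.0797 and -0.0775 for Rps9. With quantile normalization Rps15 turned to 0.0763 and 0.0267, Rps2 to 0.2571 and 0.2228, and Rpl22 in C26 to 0.0111; in C26-CHO against C26, Rpl36al turned to -0.0069 and Rpl7l1 to -0.0250. Rps27rt in C26-CHO against C26 was -0.0128 in edgeR and -0.0150 in DESeq2. Leaving out each library in turn gave 41 to 53 higher and 5 to 7 lower in C26 against CT (median 0.1453 to 0.1998), 41 to 53 and 4 in C26-CHO against CT (median 0.1492 to 0.1787), and none in C26-CHO against C26 (median -0.0214 to 0.0163). Without 1 library Rpl11 ranged from -0.0093 to 0.0372 in C26 and -0.0090 to 0.0283 in C26-CHO against CT, and Rpl8 from -0.0186 to 0.0279 and -0.0277 to 0.0261. In C26-CHO against C26, Rpl7l1 ranged from -0.0135 to 0.0216, Rps27rt from -0.0382 to 0.0913 and the log2 ratio of Rpl36al to Rpl36a from -0.0223 to 0.0179. Deviations of same-numbered mice correlated weakly over the tested genes (r from -0.2036 to 0.2548). Whether the numbers mark a shared order or batch cannot be told from these values. Mouse 3 was the lowest of its group in 51 members in CT, 27 in C26 and 25 in C26-CHO. Mouse 7 was the lowest in 49 in C26 and the highest in 55 in C26-CHO. With the replicate block 51 members were higher and 6 lower in C26 against CT. It gave 53 and 4 in C26-CHO against CT, and none in C26-CHO against C26. Over all tested genes in C26 against CT, 4847 were higher and 4796 lower with the block, beside 4681 and 4624 without it. Rpl24, Rpl3l and Rpl39l fell under the filter on low values and have no test in the fits that use it.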

Other observations

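The TOP mRNAs that encode no ribosomal protein were mixed in C26 against CT. Of 24 tested genes of this list, 10 were called higher and 5 lower in limma, with a median log2 fold change of 0.03. Of all tested genes 33.3% were called higher and 32.9% lower. The list shares some members with the lists of elongation and initiation factors and with the ribosomal proteins of other symbols. Nap1l1, a histone chaperone, rose from 989 ± 129 to 1901 ± 198 (mean ± SD of the deposited value, n = 8; log2 fold change 0.95, limma adjusted p = 1.57e-09), and Naca, which guards the nascent chain at the ribosome, fell from 3511 ± 144 to 2691 ± 90.9 (-0.38, limma adjusted p = 3.28e-09). In C26-CHO against C26 the list held 1 called gene, the noncoding snoRNA host Gas5, at 479 ± 48.2 in CT, 714 ± 62.3 in C26 and 578 ± 56.4 in C26-CHO. Gas5 differed by -0.31 between C26-CHO and C26 (limma adjusted p = 0.0331), with CT from 434 to 589, C26 from 605 to 773 and C26-CHO from 489 to 655.

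In the Myc network, whose lead member Myc drives ribosome biogenesis in growing cells, 4 of 9 tested genes were called higher and 4 lower in C26 against CT. Over all tested genes 33.3% were called higher and 32.9% lower. Myc itself stood at 121 ± 69.4 in CT, 118 ± 30.8 in C26 and 124 ± 41.8 in C26-CHO (C26 against CT, limma adjusted p = 0.774). Mycn and Mycl were called lower, with log2 fold changes of -2.33 and -1.55 (limma adjusted p = 1.57e-07 and 2.90e-07), from CT means of 127 and 172. Of 26 acute phase genes 25 were called higher and 1 lower, with a median log2 fold change of 4.44.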
